A study of Homo sapiens with 8 samples.

Results

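RPMI-8226, an established human multiple myeloma line, was measured on 4 of the 8 Affymetrix arrays of the study, 1 array for each treatment. The 2 control arrays came from uninfected cells and from cells infected with a lentivirus that carries a non-targeting (NT) shRNA. The 2 silenced arrays came from cells infected with a virus for XBP1 shRNA or for IRE1 shRNA; ERN1 is the gene of IRE1. The other 4 arrays hold the same 4 treatments of JJN3, another established myeloma line. Infection lasted 16 h with 8 µg/mL polybrene, all cultures were harvested at 96 h, and the uninfected cells had no virus. The labels name 1 shRNA for each target; its sequence, its promoter and any selection of infected cells are not given in the sources used here. Silenced cultures thus stand for a population that may hold cells the virus did not reach.

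The question was which genes lay on the same side of both controls on both silenced arrays. Such genes are called separated here, and the gap is the distance on the log2 scale from the nearest silenced array to the nearest control array. Of 19775 measured genes, 3668 lay above both controls on both silenced arrays and 2914 lay below, 6582 in all, while 13193 were not separated. The shares were 18.5% above and 14.7% below, and each list of genes is set beside these background shares. With the arrays set to the same median the split turned, to 3000 above and 3575 below, so the balance of the directions over all genes carries no meaning here. Deposited values are centred on each probe set's median over the 8 arrays, so a value gives differences between arrays and no level. Values are given in the order uninfected, NT shRNA, XBP1 shRNA and IRE1 shRNA.

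IRE1 is a sensor in the membrane of the endoplasmic reticulum (ER). When unfolded proteins accumulate, its RNase removes a short intron from XBP1 mRNA, and the spliced message encodes a transcription factor that raises ER chaperones, the translocon and vesicle transport, on which antibody secretion by plasma cells depends. PERK, a parallel sensor, acts through the transcription factor ATF4 on amino acid supply and on the stress factor CHOP. Genes of mitosis are held down in resting and G1 cells by a repressor complex that binds the cell cycle homology region (CHR) of their promoters.

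Promoter stretches of 6 genes show matches to sequence elements by which these programmes are known. HSPA5 (BiP) and HSP90B1 (GRP94), both ER chaperones, carry the ER stress response element (ERSE), searched on both strands as CCAAT, 9 bases of any kind and CCACG. MKI67, DLGAP5, CCNB2 and CDK1, genes of dividing cells, hold letters that match the CHR, searched as TTTGAA on both strands. Matches are in capitals, and a match on the opposite strand appears as its reverse complement. Sequences are from RefSeq, build GRCh38.p14, each written 5′ to 3′ on the strand of its gene.
HSPA5 promoter, chr9:125241351-125241450, minus strand: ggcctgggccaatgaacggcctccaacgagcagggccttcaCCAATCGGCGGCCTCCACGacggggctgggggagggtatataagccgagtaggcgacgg
HSP90B1 promoter, chr12:103930203-103930352, plus strand: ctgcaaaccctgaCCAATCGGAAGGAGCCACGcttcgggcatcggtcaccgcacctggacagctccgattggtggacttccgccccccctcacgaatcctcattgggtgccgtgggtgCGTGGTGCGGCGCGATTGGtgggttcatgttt
MKI67 promoter, chr10:128126424-128126503, minus strand: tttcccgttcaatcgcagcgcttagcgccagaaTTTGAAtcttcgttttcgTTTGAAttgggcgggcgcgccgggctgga
DLGAP5 promoter, chr14:55191667-55191746, minus strand: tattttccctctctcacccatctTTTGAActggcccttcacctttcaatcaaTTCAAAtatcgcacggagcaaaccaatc
CCNB2 promoter, chr15:59105066-59105145, plus strand: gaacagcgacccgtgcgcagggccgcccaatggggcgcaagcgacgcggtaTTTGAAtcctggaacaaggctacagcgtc
CDK1 promoter, chr10:60778133-60778212, plus strand: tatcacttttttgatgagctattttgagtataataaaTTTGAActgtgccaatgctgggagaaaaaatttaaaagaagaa
The window searched ran from 250 bases before to 50 after each gene's start and was at hand for 15384 of the genes. ERSE matched 16 of these promoters, 0.104%, and 6 of the 25 ER chaperone promoters. It was found in 2 of 12 chaperones that lay below both controls and in 4 of 13 that were not separated. CHR matched 1836 promoters, 11.9%, and 30 of the 44 promoters of the G2 and mitosis list. These 30 were 21 of 31 members above both controls (67.7%) and 9 of 13 members not separated (69.2%). The share was about as high among members not separated as among those above. The ATF4 composite element, searched as TGATG, 1 base of any kind and AA, matched 2.62% of all promoters and 6 of 28 PERK-ATF4 promoters, 2 of 15 below both controls and 4 of 11 not separated. The core of the unfolded protein response element, TGACGTGG, matched 0.962% of all promoters, 2 of the 12 chaperones below both controls and 1 of the 13 not separated. It matched 9 of 40 promoters of ER-to-Golgi transport (22.5%). These were 4 of 11 members below both controls, 2 of 5 above and 3 of 24 not separated. A match is a description of letters and not a measured site.

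Both the line and the targets were checked first. The lambda constant gene IGLC1 lay between 4.69 and 4.72 on the RPMI-8226 arrays and between -5.73 and -4.69 on the JJN3 arrays, and the kappa gene IGKC had the opposite order. RPMI-8226 is known to make lambda light chains and JJN3 kappa. SDC1, CD38, TNFRSF17, POU2AF1, SLAMF7 and IRF4, markers of plasma cells, were not separated, whereas MZB1 lay below both controls, at 1.09, 1.42, 0.63 and 0.82. The markers PRDM1 and XBP1, described further on, lay below both controls as well. On the mean of probe sets POU2AF1 and SLAMF7 did too, with gaps of -0.13 and -0.09. Centred values cannot show whether a marker is absent. The poly-A controls added to the RNA (24 probe sets) had medians of -0.04, 0.25, 0.43 and -0.03, and the hybridisation controls (18 probe sets) of -0.11, 0.09, -0.03 and -0.15. Neither set separated silenced from control arrays. Of the arrays themselves, IRE1 shRNA and uninfected lay closest, with an SD of 0.249 for their difference over probe sets. NT shRNA and uninfected differed by 0.316, and XBP1 shRNA and uninfected, the most distant pair, by 0.383.

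XBP1 stood at 0.19, 0.02, -0.58 and -0.60. Both silenced arrays lay below both controls, with a gap of -0.60 and a difference of -0.70 ± 0.16 (SE, 2 arrays against 2). Its other probe set did not separate them, at 0.21, 0.33, 0.13 and 0.33. ERN1, on the most variable of its 3 probe sets, stood at 2.75, 1.73, 0.29 and 2.11. The array labelled IRE1 shRNA lay between the controls for the gene of IRE1, and the array labelled XBP1 shRNA lay below all others. None of the 3 ERN1 probe sets separated silenced from control arrays (0 of 3). The target therefore does not bear out the label of the IRE1 shRNA array at the RNA level in this line, and every direction below rests on that label.

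No gene passed the test of silenced against control. In limma with Benjamini-Hochberg adjustment over all genes, 0 of 19775 were past the threshold of 0.05 (0%), and the smallest adjusted p was 0.962. An unadjusted p under 0.05 was found for 874 genes, a smaller share than the 0.05 that no difference at all would give. With 2 arrays against 2 there are 6 splits, and an exact two-sided permutation test cannot go below 0.333. Every separated gene sits at that value, and the 6582 separated genes are about that share of all genes. The median size of the difference between silenced and control arrays was 0.143 on the log2 scale. Between the 2 controls it was 0.197 and between the 2 silenced arrays 0.200. A difference of at least 1, which is 2-fold, was found for 86 genes between silenced and control, for 270 genes between NT shRNA and uninfected, and for 532 genes between the 2 shRNAs. The first is a difference between means of 2 arrays and the others between single arrays, so the first is smaller even with no change, and these sizes are not set against each other. The separation of most genes was narrow: the median gap of the 6582 genes was 0.0908, and the gap was under 0.1 for 3512 of them (53.4%). The values below describe these 4 arrays and are no test of silencing. Genes named below in each list were mostly chosen because they were separated, so the lack of overlap between their statuses follows from that choice.

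**Figure D1:**
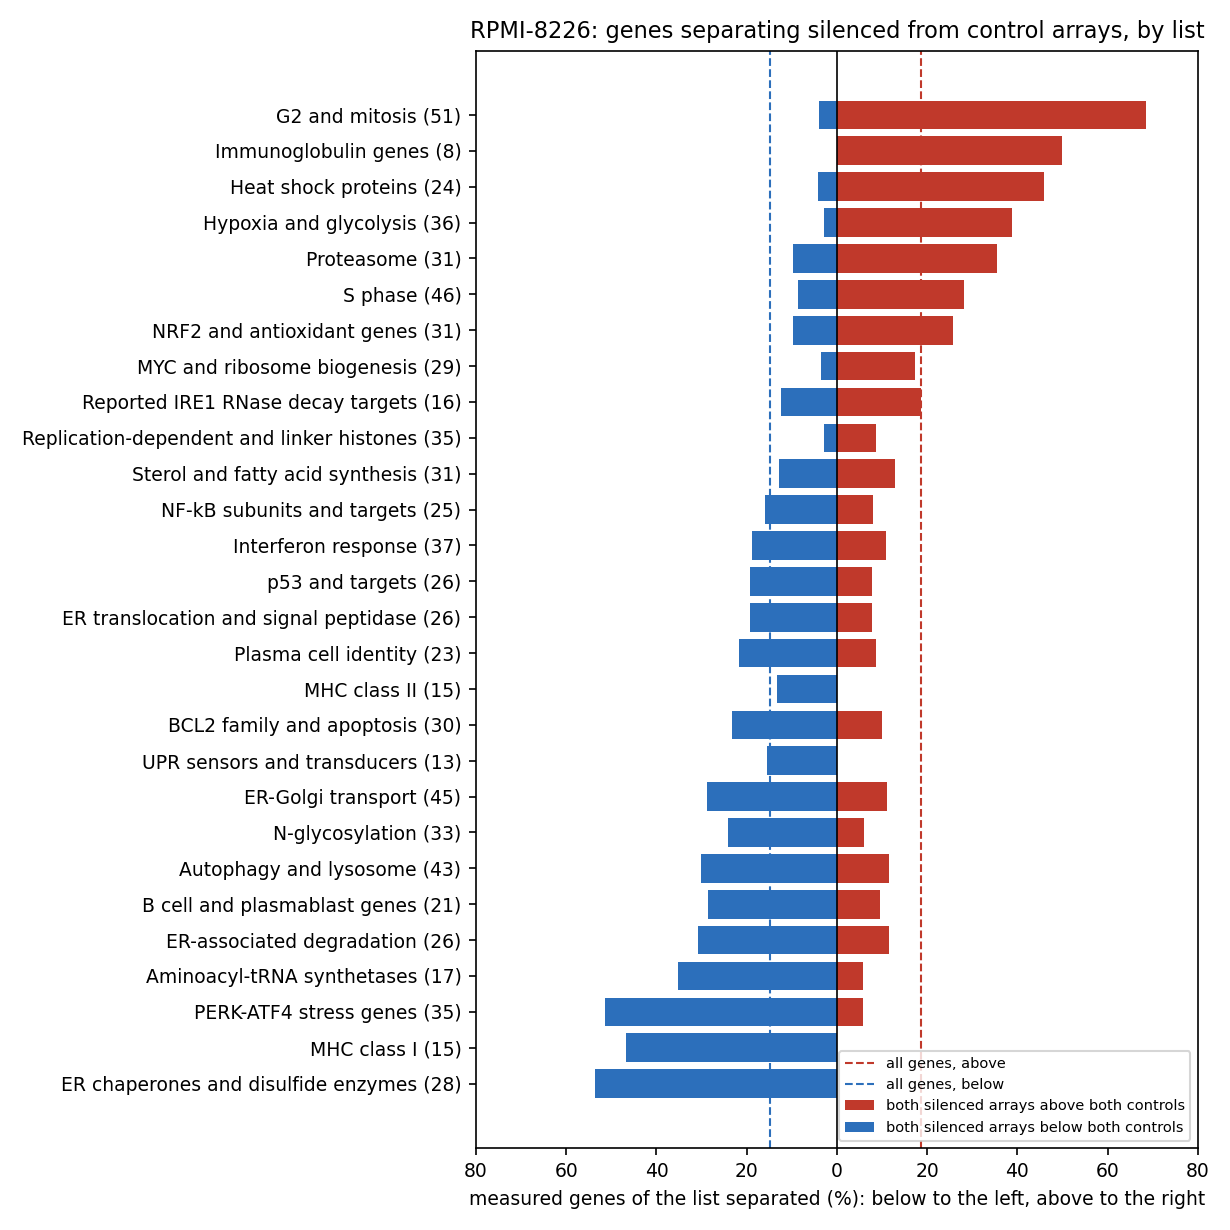
Share of the measured genes of each list, in percent, that lay above both controls (red, to the right) or below both controls (blue, to the left) on both silenced RPMI-8226 arrays; the number of genes measured is in brackets and dashed lines mark the 18.5% and 14.7% of all genes. ER chaperones, MHC class I and PERK-ATF4 genes reach farthest to the left, and G2 and mitosis genes farthest to the right, at 35 of 51.

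ER chaperones and disulfide enzymes, which fold secreted proteins, lay low on the silenced arrays. Of 28 measured, 15 lay below both controls (53.6%, against 14.7% of all genes), 0 above and 13 were not separated. The median difference of the list was -0.23, against 0.01 for all genes. XBP1 shRNA minus NT shRNA had a median of -0.22 and IRE1 shRNA minus NT shRNA of -0.28, whereas NT shRNA minus uninfected had -0.04. The XBP1 shRNA array was the lower of the silenced pair for 11 of the 15 (73.3%), as it was for 63.3% of all genes below both controls.

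PDIA3, a disulfide isomerase of glycoproteins, stood at -0.01, 0.01, -0.83 and -0.59. The controls were nearly equal, the gap to the silenced arrays was -0.58, and 2 of its 3 probe sets were separated alike. DNAJB9, a co-chaperone of BiP, stood at 0.51, 0.61, -0.53 and 0.02. All 3 probe sets separated the arrays, and the difference was -0.82 ± 0.22 (SE, 2 against 2). MANF, a secreted ER stress protein, was at 0.81, 0.68, -0.05 and 0.39, and TXNDC11, a thioredoxin-domain protein of the ER, at 0.51, 0.20, -0.34 and -0.07. PDIA3, DNAJB9, MANF and TXNDC11, like SIL1, were named as separated members of the list, so the lack of overlap follows from that choice. SIL1, the exchange factor of BiP, was at 0.26, 0.80, 0.04 and 0.09, with more space between its controls than between the uninfected and silenced arrays. HSPA5, whose ERSE is printed above, was at -0.09, -0.08, -0.25 and -0.22 and so lay below both controls, with a gap of -0.13. HSP90B1 differed by -0.19 and was not separated.

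Entry into the ER and export from it gave fewer separated genes than the chaperones. Of 26 translocation and signal peptidase genes, 5 lay below both controls (19.2%) and 2 above, with a median of -0.13. With the mean of each gene's probe sets 8 lay below (30.8%), and 9 did (34.6%) on the probe sets of highest SD over JJN3. SSR2, a partner of the translocon, stood at 0.01, 0.35, -0.54 and -0.46. SEC61B, a subunit of the translocon itself, stood at 0.07, 0.49, -0.64 and -0.30. The gaps of SSR2 and SEC61B were -0.47 and -0.37. Of 45 genes of ER-to-Golgi transport, 13 lay below (28.9%) and 5 above, again with a median of -0.13. SEC22B, a SNARE of this step, was at -0.48, -0.20, -1.04 and -1.01, and BET1, its partner, at 0.55, 0.53, -0.41 and 0.07. SEC23A, a coat protein of the export vesicle, lay on the other side, at -0.68, -1.05, -0.10 and -0.61, where the uninfected and IRE1 shRNA arrays were 0.07 apart.

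Quality control and glycosylation genes had list medians near 0. Of 26 ER-associated degradation genes, 8 lay below (30.8%) and 3 above, and the list median was at 0.00. With the mean of each gene's probe sets 13 lay below (50.0%). EDEM3, a mannosidase that marks misfolded glycoproteins, was at 0.88, 0.97, -0.06 and 0.63, and HERPUD1, a scaffold of the degradation complex, at 0.49, 0.08, -0.64 and -0.08. VCP, the ATPase that extracts substrates, was above both controls, at -0.73, -0.65, -0.51 and -0.30. N-glycosylation had 8 of 33 below (24.2%) and 2 above, with a median of -0.07; ALG2, a mannosyltransferase, stood at 0.59, 0.34, 0.08 and -0.11. Of 16 reported targets of decay by the IRE1 RNase, 3 lay above (18.8%) and 2 below, with a median of 0.05. The share above is near the background of 18.5%.

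**Figure D2:**
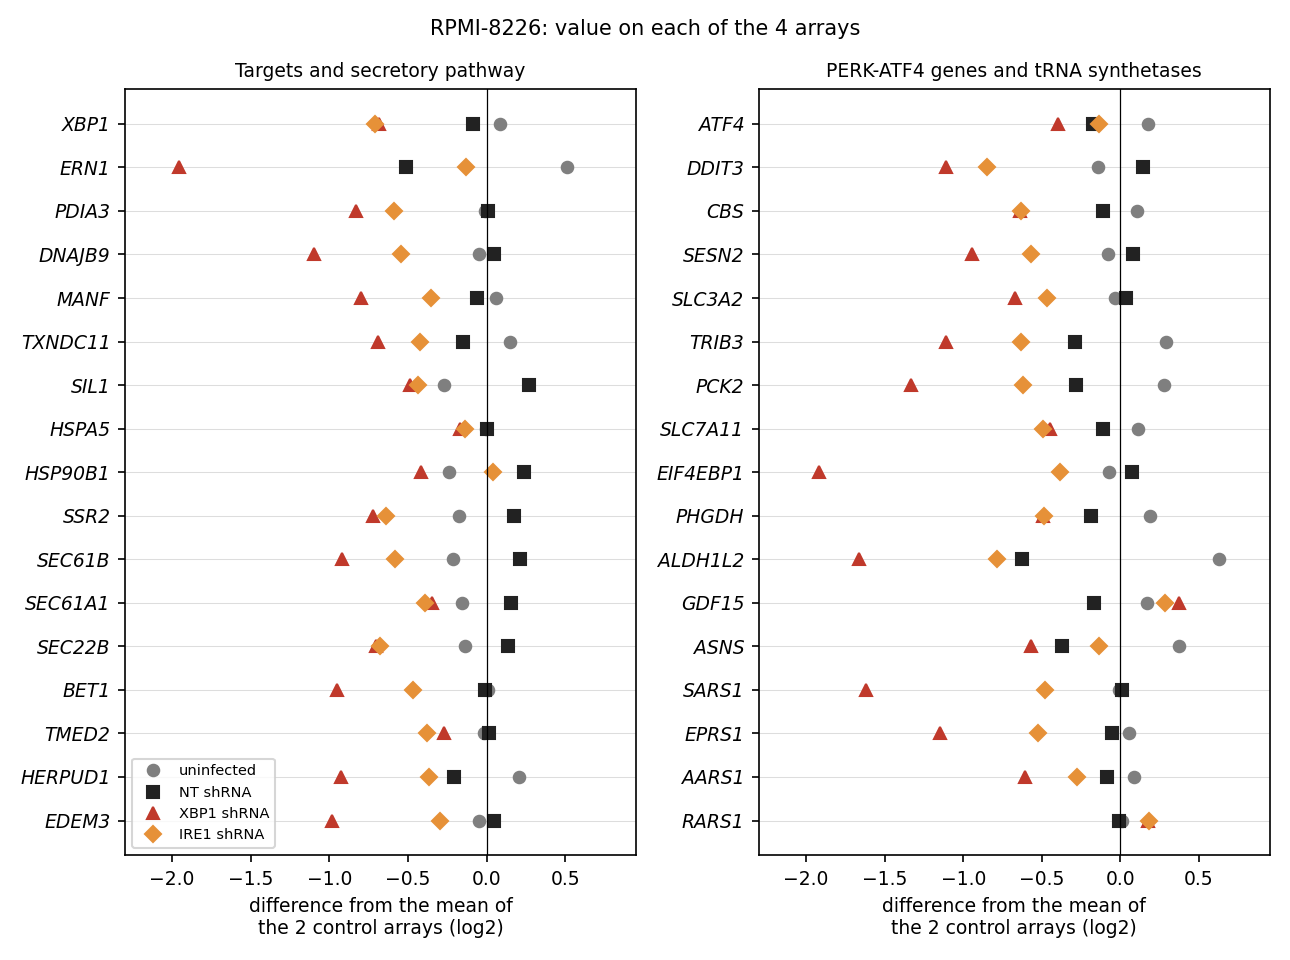
Value of each gene on the 4 RPMI-8226 arrays as the difference, on the log2 scale, from the mean of the 2 control arrays, with 1 symbol an array and no error bar since each array stands alone. XBP1, PDIA3, SSR2, SEC22B, DDIT3 and SARS1 have both silenced arrays to the left of both controls, whereas ERN1, HSP90B1, ATF4 and ASNS do not.

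PERK-ATF4 genes were the other stress list that lay low. Of 35 measured, 18 lay below both controls (51.4%), 2 above and 15 were not separated, and the median difference was -0.35. The XBP1 shRNA array was the lower of the silenced pair for 17 of the 18 (94.4%, against 63.3% of all genes below). NT shRNA itself lay under the uninfected array, with a median of -0.29 for the list and 24 of 35 members lower, where 46.9% of all genes were. IRE1 shRNA minus NT shRNA had a median of only -0.14, against -0.37 for IRE1 shRNA minus uninfected. The part that infection played in the list was not tested.

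DDIT3, which encodes CHOP, stood at 0.21, 0.49, -0.76 and -0.50. Its silenced arrays lay below both controls by a gap of -0.70, the widest of the list, with a difference of -0.98 ± 0.19. CBS, an enzyme of cysteine synthesis, was at 0.23, 0.01, -0.52 and -0.51. SESN2, a nutrient-stress brake on mTORC1, was at 0.25, 0.41, -0.62 and -0.25, and SLC3A2, the heavy chain of amino acid transporters, at 0.22, 0.28, -0.42 and -0.22. DDIT3, CBS, SESN2 and SLC3A2, like TRIB3 and GDF15, were named because they were separated. TRIB3, a pseudokinase induced by CHOP, was at 0.76, 0.17, -0.64 and -0.17, so that its controls were farther apart than the NT and IRE1 shRNA arrays. GDF15, a stress cytokine, lay above both controls at 0.33, -0.01, 0.54 and 0.45, but the mean of its 3 probe sets turned the sign, to -0.01. ATF4 itself differed by -0.27 and was not separated, nor was ASNS, asparagine synthetase, at -0.35.

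Aminoacyl-tRNA synthetases, several of which ATF4 is known to drive, had 6 of 17 below (35.3%) and 1 above, with a median of -0.10. EPRS1 was at -0.11, -0.23, -1.31 and -0.70. SARS1, the seryl-tRNA synthetase, was at 0.23, 0.25, -1.38 and -0.23. The XBP1 shRNA array lay farther from the controls than the IRE1 shRNA array, which was below them by a gap of -0.47. AARS1 stood at 0.26, 0.10, -0.43 and -0.10. RARS1, the arginyl enzyme, lay above both controls by a gap of 0.17.

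Genes of G2 and mitosis lay high on the silenced arrays. Of 51 measured, 35 lay above both controls (68.6%, against 18.5% of all genes), 2 below and 14 were not separated, and the median difference was 0.39. Medians were 0.54 for XBP1 shRNA minus NT shRNA and 0.37 for IRE1 shRNA minus NT shRNA. Against uninfected cells they were smaller, 0.33 and 0.26, and NT shRNA minus uninfected had -0.13. NT shRNA was the lower control for 26 of the 35 members, and for 1951 of all 3668 genes above. The medians were thus positive against either control. In RNA of a whole culture, more cells in mitosis and more RNA per cell cannot be told apart.

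MKI67, the proliferation marker Ki-67, stood at -1.56, -2.12, -0.54 and -0.93. The silenced arrays lay above both controls on 3 of its 4 probe sets, with a difference of 1.10 ± 0.25 (SE, 2 against 2). AURKA, a kinase of the spindle poles, stood at -0.71, -0.79, -0.11 and -0.15, and all 3 of its probe sets agreed in this order of the statuses. KIF20A, a kinesin of cytokinesis, was at -0.92, -1.44, -0.08 and -0.50. CDK1, the kinase that starts mitosis, was at -1.29, -1.01, -0.11 and -0.61, on all 4 of its probe sets above both controls. SGO1, which guards centromere cohesion, was at 0.01, 0.21, 0.77 and 0.64. These 5 genes were named for their separation, so the lack of overlap between their statuses follows from that choice. UBE2C, the ubiquitin-conjugating enzyme of the anaphase-promoting complex, went the other way at -2.36, -2.20, -2.61 and -2.80, as did BUB3, a checkpoint protein, by a gap of -0.13 that was lost on the mean of its probe sets.

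**Figure D3:**
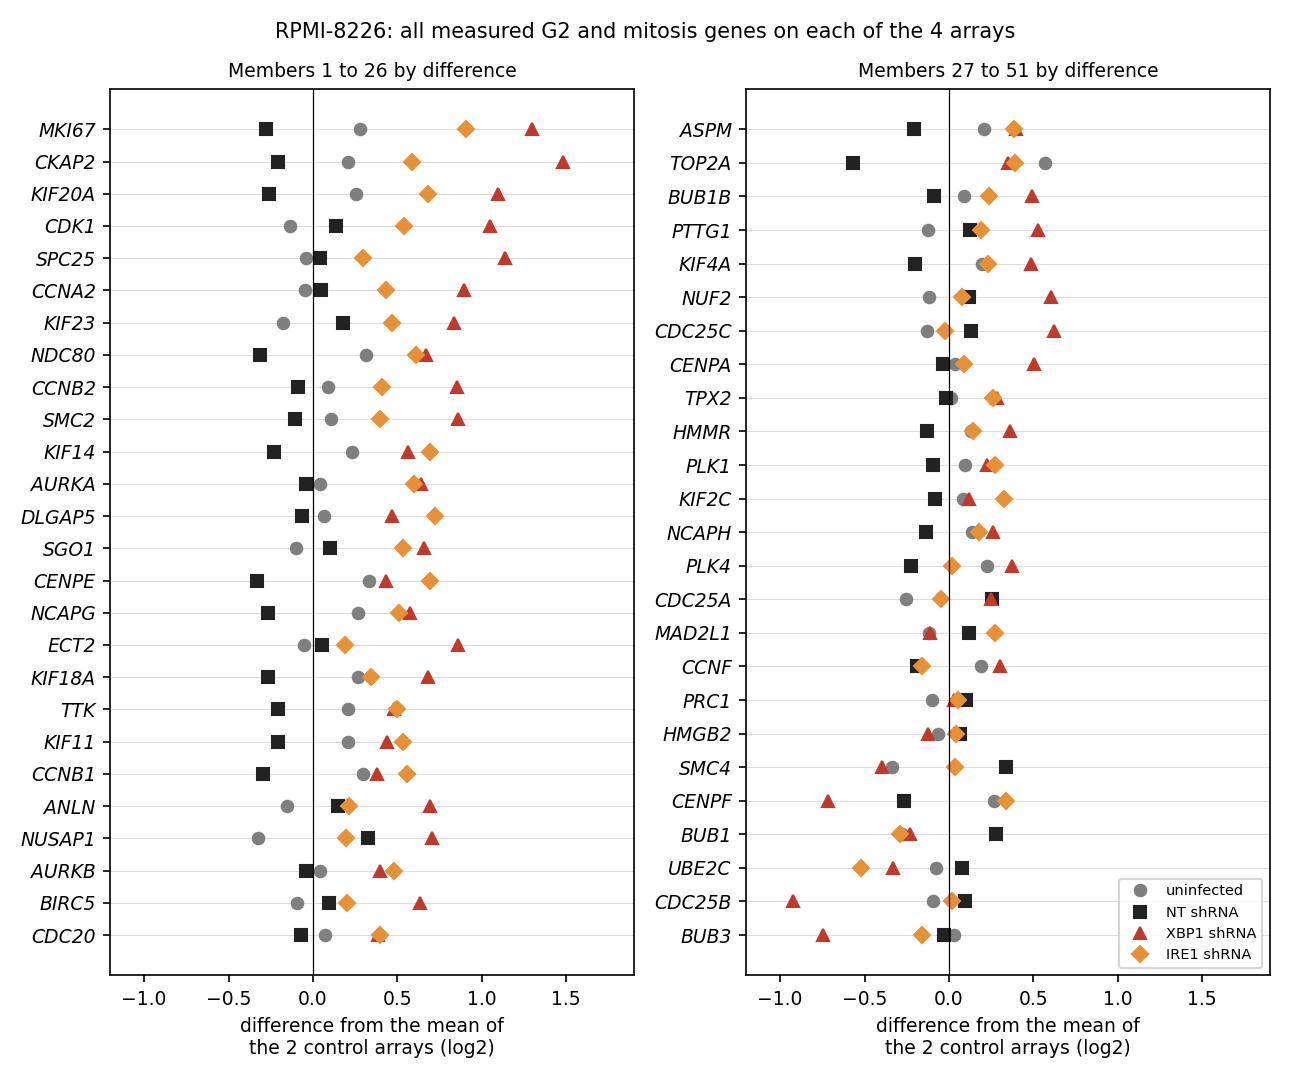
All 51 measured G2 and mitosis genes, ordered by the difference between silenced and control arrays; each symbol is 1 RPMI-8226 array, as the difference from the mean of the 2 control arrays on the log2 scale. Both silenced arrays lie to the right of both controls for 35 genes and to the left for 2, UBE2C and BUB3.

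S phase genes gave a smaller share. Of 46 measured, 13 lay above (28.3%) and 4 below, or 7 below on the probe sets of highest SD over JJN3, with a median of 0.09. POLE2, a subunit of the leading-strand polymerase, was at -0.79, -0.58, 0.01 and -0.21. CDC6, a licensing factor, lay below both controls at 0.22, 0.31, -0.01 and -0.18. Of 35 histone genes 3 lay above and 1 below, so the share above, 8.57%, was under the background. MYC and ribosome biogenesis had 5 of 29 above (17.2%) and 1 below.

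The proteasome, which degrades proteins that the ER returns, had 11 of 31 measured genes above both controls (35.5%) and 3 below, with a median of 0.16. PSME3, an activator cap of the nuclear proteasome, stood at 0.06, 0.19, 1.27 and 0.97, and all 4 of its probe sets were separated alike. PSMD11, a lid subunit, stood at 0.01, -0.24, 0.72 and 0.75, on both of its probe sets. These gaps, 0.78 and 0.71, were the widest of the list. PSMA3, a core subunit, was at 0.38, 0.49, 1.36 and 1.08 on the probe set used, yet the separation was lost on the mean of its 3 probe sets. PSMB7, another core subunit, lay below both controls, at -0.39, 0.00, -0.53 and -0.73, but not with the mean of its probe sets.

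Heat shock proteins had 11 of 24 above (45.8%) and 1 below, with a median of 0.21. HSP90AA1, an inducible HSP90, stood at -1.13, -0.81, 0.00 and -0.33, above both controls on all 4 of its probe sets. HSPB1, a small heat shock protein, was at 0.49, 1.06, 1.29 and 1.24, and STIP1, an HSP90 co-chaperone, at 0.17, 0.70, 0.83 and 0.86. In these last genes the NT shRNA array already lay near the silenced arrays, and NT shRNA was the nearer control for 10 of the 11, where it was for 46.8% of all genes above. With arrays set to the same median, 8 of 24 lay above.

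Of 36 hypoxia and glycolysis genes, 14 lay above both controls (38.9%) and 1 below, with a median of 0.16. HK1, which traps glucose as its phosphate, was at -1.34, -1.66, -0.59 and -0.88. ENO1, enolase, was at 0.08, 0.23, 0.68 and 0.59, and PGK1, phosphoglycerate kinase, at 0.20, 0.12, 0.47 and 0.62. All 4 probe sets of ENO1 and 4 of the 6 of PGK1 were separated alike. HIF1A, the hypoxia factor, differed by 0.03 and was not separated.

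MHC class I genes, which load and display peptides, had 7 of 15 below both controls (46.7%) and 0 above, with a median of -0.18. TAP2, the peptide transporter, stood at -0.05, -0.13, -1.31 and -0.50. HLA-E stood at 0.14, 0.08, -0.70 and -0.15, on all 3 of its probe sets, and NLRC5, the activator of these genes, at -0.41, -0.28, -1.43 and -0.54. XBP1 shRNA was the lower silenced array for all 7 of these, where it was for 63.3% of all genes below, and B2M and HLA-C, at -0.04 and -0.05, were not separated. Probe sets of HLA genes can cross-hybridise. MHC class II had 2 of 15 below (13.3%) and 0 above, interferon response genes 7 of 37 below (18.9%) and 4 above, and NF-kB genes 4 of 25 below (16.0%) and 2 above. Those shares below lie near the background, although 7 NF-kB genes lay below (28.0%) with the mean of probe sets. The shares above, in this order 0%, 10.8% and 8.0%, were under the 18.5% of all genes.

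Plasma cell identity genes had 5 of 23 below (21.7%) and 2 above, and 9 below (39.1%) with the mean of probe sets. CD28, a costimulatory receptor that myeloma cells can carry, stood at 0.57, 1.10, 0.09 and 0.33 on probe sets that were separated alike in 3 of 3. PRDM1, the factor BLIMP1, was at -0.31, -0.35, -1.74 and -0.40, a value set apart on the XBP1 shRNA array alone. ZBP1, a nucleic acid sensor, was at 0.20, 0.03, -0.24 and -0.39. Of 8 immunoglobulin genes 4 lay above (50.0%) and 0 below, among them IGHA1 at 0.37, 0.10, 0.57 and 0.90 and JCHAIN, the joining chain, at 0.96, 0.81, 1.12 and 1.12. The other two, IGHG1 and IGHD, had gaps of only 0.03. On the mean of probe sets neither was separated, which leaves 2 of 8 (25.0%), and the difference of IGHD turned to -0.01.

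Markers of other cells showed no common order. T and NK markers had 5 of 18 above and 3 below, and myeloid markers 1 and 1 of 15. Stromal and epithelial markers had 5 and 2 of 19, and erythroid and platelet markers 2 and 0 of 8. In this order the shares above were 27.8%, 6.67%, 26.3% and 25.0%, against 18.5% of all genes. The shares below were 16.7%, 6.67%, 10.5% and 0%, against 14.7%. The share above of the T and NK markers was about as high as the 28.3% of S phase genes. Their summed centred values overlapped between statuses for the T and NK list, at 4.60, 4.36, 4.13 and 5.38, and for the stromal list, at 3.63, 3.08, 1.47 and 3.63. Whether a defining marker is at 0 cannot be read from centred values.

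Few genes had a wide gap. A gap of at least 1 was found for 1 gene above both controls, CSTF3 (0.00506% of all genes), and for 2 below, IL10 and CRIM1-DT (0.0101%). CSTF3, a subunit of the mRNA cleavage stimulation factor, stood at 0.41, 0.35, 2.20 and 1.54, on 2 of its 3 probe sets, and its gap was 1.13. Just outside the limit above were TGFBI, with a gap of 0.98, and DCP2 at 0.93, and just outside below were NIPAL3 at -0.99 and AGO4 at -0.98. On the mean of probe sets the gap of TGFBI stayed at 0.98, but that of DCP2 was 0.35, of NIPAL3 -0.40 and of AGO4 -0.30. IL10, which encodes an anti-inflammatory cytokine, stood at 2.13, 5.45, 0.17 and 0.67, so that its controls were 3.32 apart. The difference was -3.37 ± 0.98, and the gap of -1.46 is measured from the lower control, the uninfected array. CRIM1-DT, a divergent transcript, stood at 1.44, 1.65, 0.37 and 0.33 on 1 of its 2 probe sets.

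At a gap of at least 0.5, which is 1.41-fold, 42 genes lay above (0.212%) and 78 below (0.394%). At least as many probe sets agreed as not for 30 of the 42 and 61 of the 78. The 12 widest gaps in each direction among these were named after their values had been seen. Above both controls, TGFBI, an extracellular matrix protein, was at -2.04, -2.08, -0.94 and -1.06 on its 1 probe set. DCP2, the mRNA decapping enzyme, was at -0.36, -0.59, 1.35 and 0.57, and NR4A2, an immediate-early nuclear receptor, at 0.24, 0.05, 1.16 and 1.26 on 3 of 3 probe sets. EIF4E2, a cap-binding repressor of translation, was at -0.65, -1.10, 0.76 and 0.03. The 12 also held SNHG19, TINAG, LOC100289230, ATF7IP2 and HTATIP2, with gaps between 0.66 and 0.80, beside PSME3 and PSMD11 described above. On the mean of probe sets the gap was 0.07 for TINAG, 0.28 for ATF7IP2, 0.35 for HTATIP2 and 0.34 for EIF4E2. Below both controls, NIPAL3, a predicted magnesium transporter, was at 0.67, 0.65, -0.34 and -0.47 on 4 of 5 probe sets. AGO4, an Argonaute protein, was at -1.16, -1.37, -2.57 and -2.35, and SLC35F6 at 0.63, 0.88, -0.55 and -0.32. INHBE, an inhibin subunit known as an ER stress gene, was at 0.97, 0.38, -1.37 and -0.38, and PTMA, prothymosin, at 0.38, 0.49, -0.38 and -0.42. ARMCX3, LINC00674, FBXL4, WASF2 and TMEM260 had gaps between -0.86 and -0.76. On the mean of probe sets their gaps ran from -0.49 to -0.28, and that of SLC35F6 was -0.33. All of these genes were chosen by their gap, so their separation follows from the choice.

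The JJN3 arrays gave a comparison on other samples. They took no part in the separation of a gene in RPMI-8226, but they entered the choice of its probe set, the one with the highest SD over 8 arrays. There 3743 genes lay above both controls (18.9%) and 4313 below (21.8%). Of the 42 genes with a gap of at least 0.5 above in RPMI-8226, 37 had a positive difference in JJN3, where 48.6% of all genes had, and 25 were separated the same way (59.5%). For the 78 below, 61 had a negative difference, where 51.4% of all genes had, and 45 were separated the same way (57.7%). Opposite separation was found for 2 and 5 of them. Of all 3668 genes above in RPMI-8226, 900 were above in JJN3 as well, 24.5% of the RPMI-8226 genes and 24.0% of the JJN3 genes, and 660 were below there. Of the 2914 below, 941 were below in JJN3, 32.3% and 21.8%, and 409 were above.

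The lists were counted in JJN3 in the same way, where 18.9% of all genes lay above both controls and 21.8% below. Of all 19775 genes, 900 lay above in both lines and 941 below in both. ER chaperones had 17 of 28 below in JJN3, 10 of them also below in RPMI-8226, and medians of -0.30 and -0.23. PERK-ATF4 genes had 30 of 35 below in JJN3 and 17 below in both lines, but their median was -1.37 in JJN3 against -0.35 in RPMI-8226. DDIT3 differed by -1.35 in JJN3, SESN2 by -2.22 and INHBE by -3.64, each farther than in RPMI-8226. G2 and mitosis genes had 18 above and 6 below in JJN3, 13 above in both, and a median of 0.15. S phase genes had 32 of 46 below and 1 above in JJN3, with a median of -0.45 where RPMI-8226 had 0.09. MCM10 and CDC45, both of the replication fork, lay above both controls in RPMI-8226 by 0.21 and 0.39 and below both in JJN3 by -0.69 and -0.46. Heat shock proteins had 5 above and 7 below of 24 in JJN3, hypoxia and glycolysis genes 7 and 8 of 36, and MHC class I 0 and 3 of 15. The heat shock genes above, the MHC class I genes below and both counts of the hypoxia list are near the background shares.

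**Figure D4:**
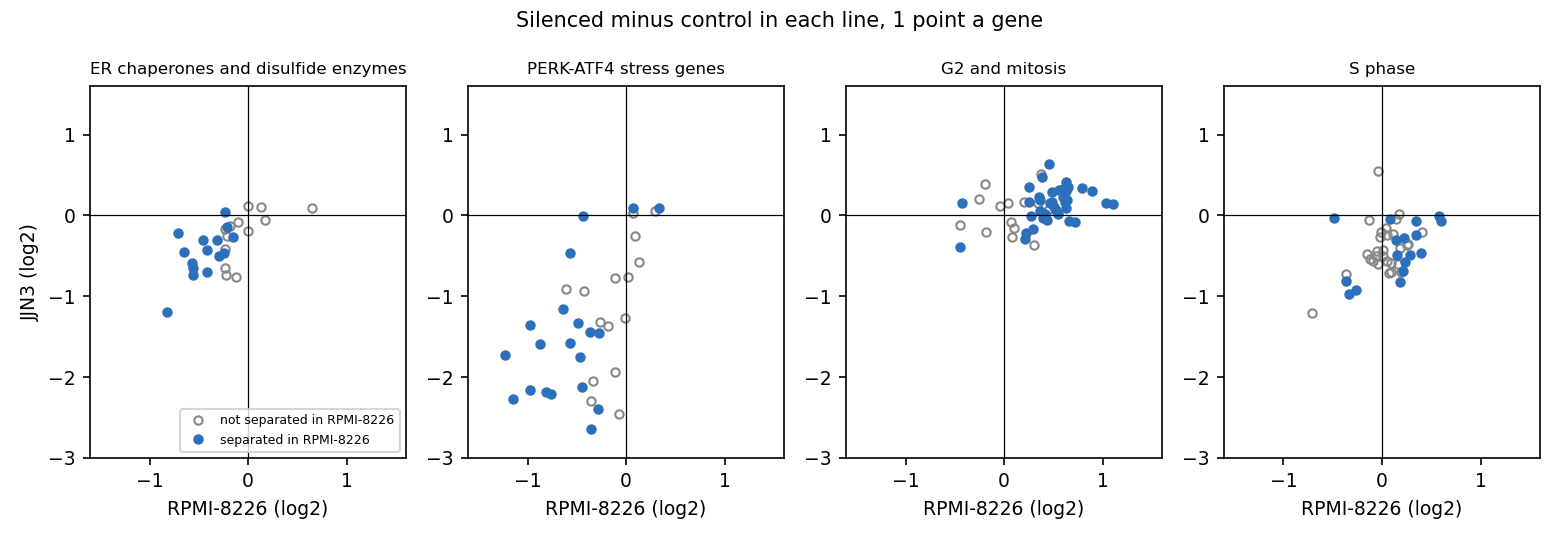
Silenced minus control on the log2 scale in RPMI-8226 (horizontal) and JJN3 (vertical), 1 point a gene, for 4 lists; filled points were separated in RPMI-8226. PERK-ATF4 genes lie farther from 0 in JJN3 (median -1.37) than in RPMI-8226 (-0.35), and S phase genes lie below 0 in JJN3 and about 0 in RPMI-8226.

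The difference between the lines was tested as an interaction over all 8 arrays. In limma 0 of 19775 genes passed (0%), and 943 had an unadjusted p under 0.05, again a smaller share than 0.05. The smallest limma adjusted p was 0.336. That value was reached by PSAT1 and STC2, of the PERK-ATF4 list. Their silenced minus control difference in RPMI-8226, minus that in JJN3, was 2.39 ± 0.32 and 2.11 ± 0.28 (SE, 2 arrays against 2 in each line). With the 4 treatments as a block across the lines 0 genes passed as well. In that limma fit 1593 had an unadjusted p under 0.05, a larger share than 0.05, and the smallest adjusted p was 0.0747, for PSAT1 and CDC14B. Among S phase genes the smallest adjusted p was 0.816, for MCM4. Without the RPMI-8226 uninfected array 2 genes passed, IL10 (-4.98, limma adjusted p = 0.0282) and BCL6 (-3.24, 0.0411), a repressor of plasma cell differentiation. That fit leaves the NT shRNA array as the only RPMI-8226 control, so its spread is taken to be that of the other groups. BCL6 stood at -3.85, -0.15, -3.93 and -3.92 in RPMI-8226, and so, like IL10, it was highest on the NT shRNA array. With each of the other 7 arrays left out, 0 genes passed.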

How the data were processed

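RNA of 8 cultures was labelled and hybridised, 1 array each. RMA, named without a version in the submitters' processing notes, made the deposited values. The values the authors deposited were taken as log2, the scale RMA returns; log base and centring are not given in the sources used here. All 54675 probe sets were centred, with median 0 across arrays (tolerance 1e-05), so no level or background can be read. Array annotation gave 1 symbol to 41097 probe sets (19775 genes), several to 1801 and none to 11777; 41043 matched the reference gene table (GRCh38.p14). Each gene was represented by its most variable probe set (SD over 8 arrays). No pair of arrays was identical (0 pairs).

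Silenced was tested against control in RPMI-8226, and the lines against each other, with limma 3.58.1 in R 4.3.3 (lmFit, eBayes, two-sided, Benjamini-Hochberg over 19775 genes, threshold 0.05). Errors are its SE. Each treatment had 1 array, so unlike treatments stood as replicates, nothing says that cultures were repeated, and p-values measure only the spread between these samples. The number of arrays limits precision. Lists numbered 32, with 935 genes, 840 measured.

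Genes and lists were chosen with earlier results of these data known. The named genes are XBP1 and ERN1, the 12 genes with the widest gap of at least 1 and with as many of their probe sets alike as not, any past the limma threshold, and in each list and direction up to 5 separated members with the widest gap. Since 3 genes reached a gap of 1, the 12 of at least 0.5 were added; this choice, and other members named as not separated or for their place, came after the values were seen. Alternatives were the probe set rule, array scaling, a filter on genes of low SD, robust eBayes, a fit of all 8 arrays, and each array left out.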

Additional observations from a re-analysis of the deposited data

Results flagged for a closer look

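In 5 of the genes named above, both silenced arrays lay beyond both controls in each line but on opposite sides. The difference between the lines was tested for each with the limma interaction over 8 arrays, and none was past the threshold, nor with treatment as a block. MCM4, a subunit of the replicative helicase, had a difference of 0.18 in RPMI-8226 and of -0.82 in JJN3 (limma adjusted p = 0.816). MCM10, which joins the helicase to the polymerase, differed by 0.21 and -0.69 (0.846), and CDC45, another helicase component, by 0.39 and -0.46 (0.964). PSMB7 of the proteasome core stood at -0.43 for RPMI-8226 against 0.82 for JJN3 (0.846). ZBP1, the nucleic acid sensor, differed by -0.43 and 0.80 (0.836). On the mean of probe sets MCM10 and PSMB7 were not separated in RPMI-8226, with differences of 0.10 and -0.12. No group held 4 arrays of 1 treatment, so single arrays were not tested as outliers.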

How the results depend on the processing

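The count of genes past the limma threshold was 0 under each of the alternatives run. Genes at an unadjusted p under 0.05 numbered 874, and 434 with the filter on genes of low SD, which tests fewer genes; with 1 array left out they ran from 455 to 2013. Under the filter 1514 genes were separated above and 1758 below. Genes with a gap of at least 1 above numbered 1, against 0 with the mean of probe sets, 2 with the probe set of highest SD over JJN3 and 3 after quantile normalization; below, 2 became 1 with the mean. A gap of 0.5 gave 42 and 78. The interaction count of 0 ran from 0 to 2.

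Leaving out 1 array leaves fewer arrays to lie beyond, so counts grow: 6278 to 7684 above, 5795 to 6553 below, and 7 to 75 and 16 to 227 at a gap of at least 1. The lists gave 10 to 12 translocation genes (38.5% to 46.2%) and 18 to 23 ER-to-Golgi genes (40.0% to 51.1%) below, where all genes gave 29.3% to 33.1%. Above were 14 to 23 proteasome genes (45.2% to 74.2%), 12 to 17 heat shock genes (50.0% to 70.8%) and 20 to 22 glycolysis genes (55.6% to 61.1%). All genes gave 31.7% to 38.9% above. Translocation genes below were 8 with the mean of probe sets and 9 with the probe set of highest SD over JJN3, against 5. The other 8 lists counted this way, 15 chaperones, 18 PERK-ATF4 and 35 G2 and mitosis genes among them, stayed within 1.5 times under scaling and probe set rules. Of 16 further list counts of at least 5, the mean of probe sets moved 5 and array medians 2; of 39 smaller counts 5 to 17 moved, by setting. Of 230 named genes' differences, 90 moved by over the spread within a status with the mean and 35 with the JJN3 rule. No paired analysis was possible because, within RPMI-8226, each treatment has 1 array. Across lines, with treatment as a replicate block (added after the data were seen), the paired interaction count was 0. With 2 arrays a status and no background reading, small differences cannot be resolved.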

Other observations

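Autophagy and lysosome genes had 13 of 43 below both controls in RPMI-8226 (30.2%, against 14.7% of all genes) and 5 above. SQSTM1, the cargo receptor p62, stood at 0.69, 0.62, -0.20 and 0.20 (uninfected, NT shRNA, XBP1 shRNA and IRE1 shRNA), and CTSB, the protease cathepsin B, at 0.85, 1.72, 0.52 and 0.53 on probe sets that were separated alike in 5 of 5. ATG14, a subunit of the lipid kinase that starts autophagosomes, lay above both controls at -0.56, -0.83, -0.14 and -0.16. NRF2 and antioxidant genes had 8 of 31 above (25.8%, against 18.5% of all genes) and 3 below. Among those above, the quinone reductase NQO1 stood at -2.59, -2.22, -1.43 and -1.84, although the mean of its 3 probe sets was not separated.

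BCL2 family and apoptosis genes had 7 of 30 below (23.3%, against 14.7% of all genes) and 3 above (10.0%, against 18.5%). HRK, a BH3-only cell death factor, stood at 0.96, 1.30, 0.44 and 0.52, and BCL2 at 0.84, 0.05, -0.86 and -0.05. For BCL2 the IRE1 shRNA and NT shRNA arrays lay 0.10 apart. Of 26 genes of p53 and its targets 5 lay below (19.2%) and 2 above (7.69%), among the latter ZMAT3 at -0.14, -0.14, 1.01 and 0.14. Sterol and fatty acid synthesis had 4 of 31 above and 4 below, a share of 12.9% each and under the shares of all genes. Of the 31, 5 were lower on the NT shRNA than on the uninfected array, where 46.9% of all genes were. B cell and plasmablast genes had 6 of 21 below (28.6%) and 2 above (9.52%). With the mean of probe sets 3 lay below (14.3%), near the share of all genes.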
